A study of Mus musculus with 15 samples.

Results

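The genes described here are 40 genes of protein folding in the endoplasmic reticulum (ER), of the unfolded protein response and of ER-associated degradation (ERAD), chosen by symbol. All 40 were found among the 17527 genes of the deposited table. The data are RNA sequencing of whole livers of mice in 3 groups of 5 libraries. BBBPH mice received a diet that drew 60% of its energy from fat and 20% each from protein and carbohydrate, held 0.2% cholesterol and came with drinking water with 42 g/L of sugar (55% sucrose, 45% fructose), for 20 weeks, and from week 12 a daily oral dose of 150 mg/kg of biotransformed bear bile powder. Model mice received the same diet and water for the same time, and saline in place of the powder, and serve as a model of nonalcoholic steatohepatitis. For control mice the labels give no diet, and for no group a strain, sex or age. The dosed group held 14 mice, of which 5 were sequenced, and each library is taken as 1 mouse, which the labels do not state in those words.

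The ER is where secreted and membrane proteins fold, and hepatocytes, which secrete most plasma proteins, carry a large load of them. Chaperones of the BiP system hold unfolded chains, lectin chaperones hold chains that carry sugars, and isomerases form disulfide bonds and turn prolyl bonds. When unfolded protein builds up, the membrane sensors IRE1 (gene Ern1), PERK (Eif2ak3) and ATF6 are activated, mostly at the level of the protein: IRE1 splices Xbp1 mRNA, PERK phosphorylates a translation initiation factor, and ATF6 is cut to release a transcription factor. The transcription factors XBP1 and ATF6 then raise chaperone and ERAD genes, and ERAD sends proteins that fail to fold back to the cytosol for breakdown.

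Values are the authors' FPKM, fragments scaled to gene length and library size, from libraries of 35395712 to 39624160 fragments, where 1 fragment in a gene of 1 kilobase is worth 0.0252 to 0.0283 FPKM. Errors are SDs over 5 libraries. Fold changes are on the log2(FPKM + 1) scale, which understates the changes of genes near 1 FPKM, and come from limma over the 9575 genes that averaged 1 FPKM or more across libraries. A gene is called at a Benjamini-Hochberg adjusted p under 0.05 over those genes, and each p-value measures the spread between these libraries only. Of the 40 genes, 39 passed that minimum. Fkbp2, a prolyl isomerase, was listed at 0 in 13 libraries, at 0.0639 FPKM in BBBPH 3_2 and at 0.0657 FPKM in model 1_4, and was not tested. This gene is widely expressed in other tissues, and how its reads were counted is not given in the sources used here, so that a listed 0 is not read as absent expression.

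The libraries carried hepatocyte RNA, with Alb between 36890 and 43647 FPKM in BBBPH livers, 21144 and 39796 FPKM in model livers, and 41988 and 50923 FPKM in control livers. Summed over 8 hepatocyte markers, the levels were 54667 to 64770 FPKM in BBBPH, 31593 to 55132 FPKM in model and 60318 to 68359 FPKM in control livers. Of the 8, 4 were called lower in model than in control livers, where 8.64% of all tested genes were. Markers of plasma cells, whose large ER is rich in these chaperones, and of B cells summed to 45.7 to 56.5 FPKM in BBBPH, 50.1 to 77.0 FPKM in model and 58.2 to 66.6 FPKM in control livers. Most of that was Sdc1, which hepatocytes also express. Jchain lay between 1.7 and 5.21 FPKM in BBBPH, 1.03 and 2.79 FPKM in model, and 1.4 and 3.28 FPKM in control livers. Cd79a reached at most 1.64 FPKM in BBBPH, 1.14 FPKM in model and 0.979 FPKM in control livers. Mzb1 reached at most 0.72 FPKM and Tnfrsf17 at most 0.0932 FPKM in any library. Markers of stellate cells and fibroblasts summed to 130 to 143 FPKM in BBBPH, 143 to 180 FPKM in model and 109 to 132 FPKM in control livers. Of these, 7 of 9 were called higher in model than in control livers, and of 9 tested macrophage markers 4 were. Over all tested genes that share was 29.9%. The part of these cell types in the results was not tested. Library BBBPH 2_2 held 4630 FPKM of 14 pancreatic acinar markers, against at most 27.0 FPKM in any other, and control 2_1 held 431 FPKM of 9 muscle markers. Model 1_4 had 252 FPKM of Spp1, osteopontin, which cholangiocytes and macrophages both make, against 19.4 to 30.2 FPKM in the other libraries, while the cholangiocyte markers Krt19, Krt7, Epcam, Sox9 and Cftr were at 0.0043 to 1.2 FPKM there. Without model 1_4 and BBBPH 2_2, the counts of called genes among the 39 were 23 in BBBPH against model, 7 in BBBPH against control and 27 in model against control, beside 23, 7 and 26 with all libraries. Without control 2_1 as well they were 23, 5 and 26. The strand setting of the counting is not given in the sources used here, and genes on the opposite strand share 25.0% of the exon bases of Ppib (Snx22), 11.9% of Txndc5, 10.3% of Hsp90b1, 8.9% of Manf and 8.0% of Eif2ak3 in GENCODE M21, whose reads then cannot be told apart. In whole liver, fewer cells of a type and less RNA per cell cannot be told apart.

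Most of the 40 genes were higher in model than in control livers, and most were lower in BBBPH than in model livers. Their summed level was 2695 ± 303 FPKM in BBBPH livers, 5521 ± 655 FPKM in model livers and 2900 ± 345 FPKM in control livers (SD, n = 5 each). Of the 39 tested genes, 26 were higher in model than in control livers and 0 were lower, by limma, where 29.9% of all tested genes were higher and 8.64% lower. The count at an unadjusted p under 0.05 was 28 in either direction. In BBBPH against model livers, 22 were lower and 1 was higher, where 12.2% of all tested genes were lower and 14.2% higher. In BBBPH against control livers, 5 were lower and 2 higher, where 3.7% of all tested genes were lower and 24.4% higher. The median log2 fold change of the 39 was -0.66 in BBBPH against model, -0.02 in BBBPH against control and 0.47 in model against control livers, beside medians over all tested genes of 0.02, 0.13 and 0.12. The 3 comparisons share libraries, so that their calls are not independent of each other.

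The libraries of both groups did not overlap for 27 genes in model against control livers, 26 with every model value above every control value and 1, Erlec1, the other way round. Among all tested genes these shares were 18.8% and 5.07%. For 21 genes every BBBPH value was below every model value and for 0 every one was above, where the shares over all tested genes were 7.9% and 9.11%. Against control livers, BBBPH values lay wholly below for 1 gene, Herpud1, and wholly above for 1, Dnajc10, beside 2.22% and 15.3% of all tested genes.

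**Figure D1:**
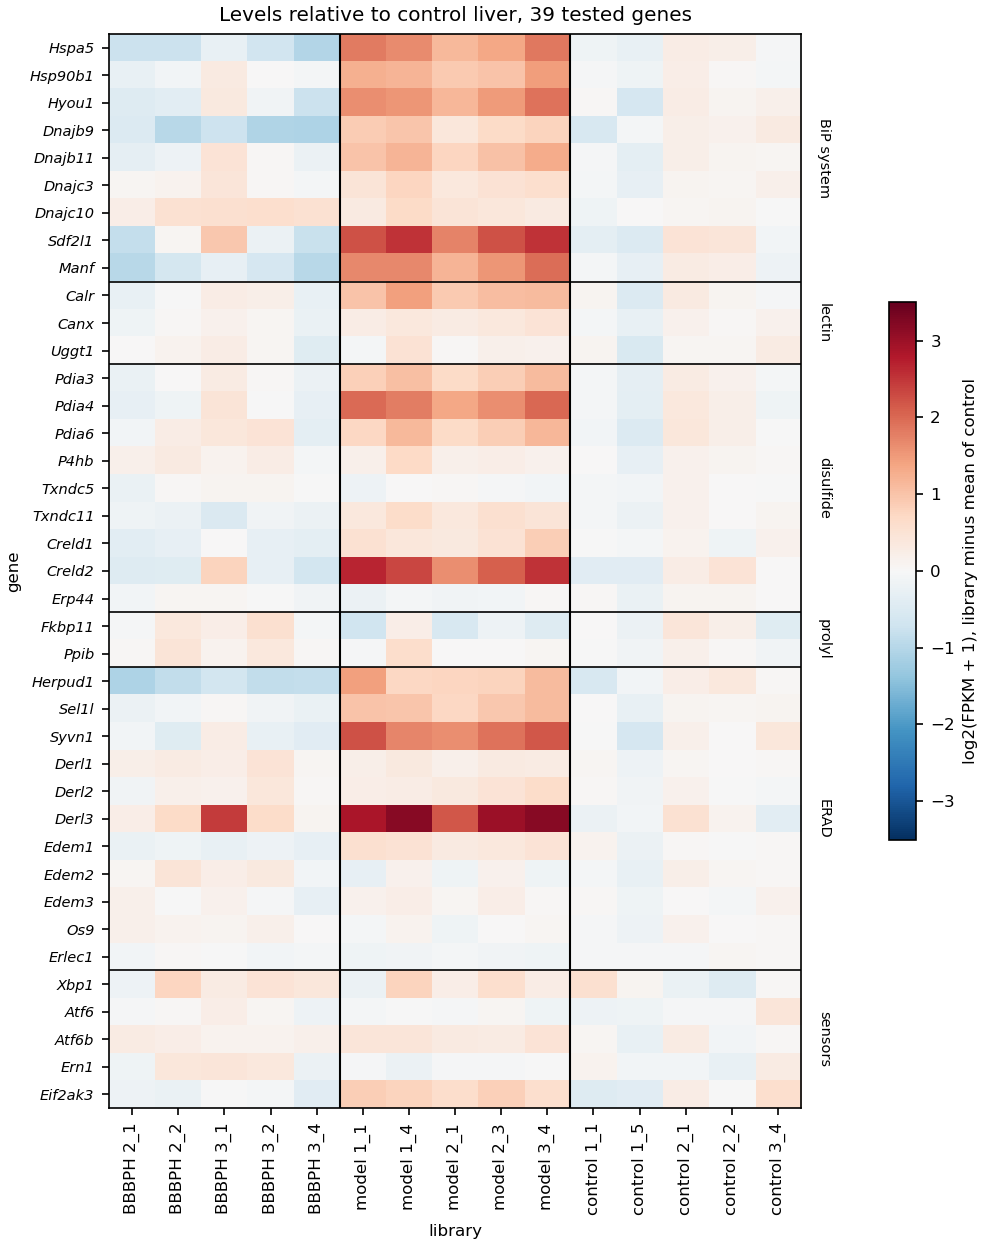
Level of 39 genes (rows, grouped by role) in 15 libraries (columns: BBBPH, model, control), as log2(FPKM + 1) minus the mean over control libraries. The red block in the model columns covers the BiP system, calreticulin, most disulfide isomerases and the ERAD genes Herpud1, Sel1l, Syvn1 and Derl3, while Xbp1, Atf6 and Ern1 among the sensors show no such block.

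Of the promoters in the RefSeq table (GRCm38.p6, 250 bases before to 50 after each gene start), those of 35 of the 40 genes were found. They were searched on both strands for the ER stress response element, CCAAT and CCACG set 9 bases apart (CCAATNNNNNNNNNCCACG), which NF-Y binds at the CCAAT part and ATF6 or XBP1 at the other. The element was defined on promoters of ER chaperone genes, so that its presence here is no independent result. It was in 0.119% of all 32851 promoters (39) and in those of 9 of the 35 genes, with 10 matches. All 9 of these genes were higher in model than in control livers, where 29.9% of all tested genes were. All 9 were also lower in BBBPH than in model livers, where 12.2% of all tested genes were. The matches were chosen for display with these calls known, so that the calls are no independent result either. The 10 matches are written in the direction of the element, 5′ to 3′, with its fixed letters in capitals.
Hspa5: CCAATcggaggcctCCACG
Calr: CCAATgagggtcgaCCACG
Derl3: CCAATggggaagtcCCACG
Hsp90b1 (upstream match): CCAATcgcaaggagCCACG
Hsp90b1 (downstream match): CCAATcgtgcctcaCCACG
Canx: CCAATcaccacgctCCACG
Pdia6: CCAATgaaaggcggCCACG
Dnajc3: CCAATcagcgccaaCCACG
Creld2: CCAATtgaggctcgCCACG
Syvn1: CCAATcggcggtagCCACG

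Seen from the RefSeq gene start, the match in Syvn1 was the nearest, 44 to 26 bases upstream, and that of Hspa5 lay 65 to 47 bases upstream. Hsp90b1 was the only one of the 35 with 2 matches, 212 to 194 and 107 to 89 bases upstream, on opposite strands. In 4 genes, Calr, Creld2, Derl3 and Hsp90b1, a match lay on the strand opposite to the gene. GENCODE M21, used for the gene positions given further on, places some starts elsewhere. Its interval for Hspa5 begins at 34771970, within the bases shown here, and holds the match. Its interval for Hsp90b1 ends at 86705509, also within the bases shown. The 250 bases before the RefSeq start are shown for Hsp90b1, which had the most matches, and for Hspa5 and Syvn1, whose matches were the closest to that start. Each is on the strand of the gene, with matches in capitals.
Hsp90b1, GRCm38.p6 chr10:86705445-86705694, minus strand: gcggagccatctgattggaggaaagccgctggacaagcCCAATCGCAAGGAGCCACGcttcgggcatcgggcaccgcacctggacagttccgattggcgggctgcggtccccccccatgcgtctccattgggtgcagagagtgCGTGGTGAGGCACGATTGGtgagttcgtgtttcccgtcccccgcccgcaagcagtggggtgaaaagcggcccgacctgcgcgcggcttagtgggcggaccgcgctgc
Hspa5, GRCm38.p6 chr2:34771840-34772089, plus strand: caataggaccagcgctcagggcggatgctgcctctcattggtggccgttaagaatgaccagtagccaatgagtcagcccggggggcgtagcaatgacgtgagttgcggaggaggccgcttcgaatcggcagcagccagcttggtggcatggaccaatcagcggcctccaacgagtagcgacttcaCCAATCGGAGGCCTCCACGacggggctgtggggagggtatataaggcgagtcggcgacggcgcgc
Syvn1, GRCm38.p6 chr19:6046326-6046575, plus strand: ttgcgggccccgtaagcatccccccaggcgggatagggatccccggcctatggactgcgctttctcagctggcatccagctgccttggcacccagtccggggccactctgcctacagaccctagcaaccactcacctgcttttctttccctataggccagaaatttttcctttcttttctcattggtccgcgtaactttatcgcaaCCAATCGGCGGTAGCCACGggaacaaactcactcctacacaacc

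**Figure D2:**
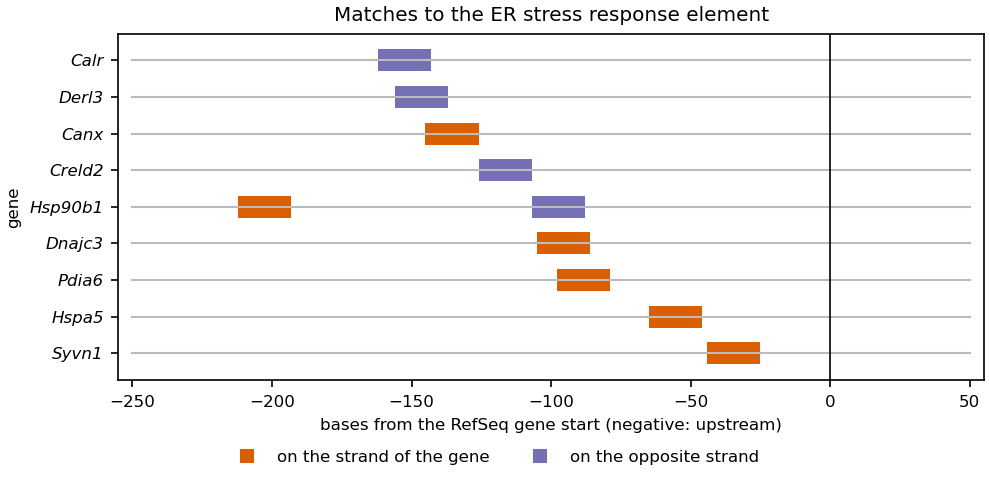
Matches to the ER stress response element (bars) in the promoters of 9 genes, by distance in bases from the RefSeq gene start, with upstream negative; colour gives the strand of the match. All 10 matches lie upstream of the start, from 212 bases away in Hsp90b1 to 26 bases in Syvn1.

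A second element, ATTGG and CCACG set 1 base apart (ATTGGNCCACG), was in 0.0365% of all promoters and in those of Herpud1 and Dnajb11. ATTGG is CCAAT read on the other strand, so that both elements share their parts in another order. The Herpud1 match lay 52 to 42 bases upstream, and that of Dnajb11 just after the start.
Herpud1: ATTGGgCCACG
Dnajb11: ATTGGcCCACG

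The core TGACGTGG, which XBP1 and ATF6 bind, was in 0.676% of all promoters and in those of Txndc5 and Txndc11. Of these, Txndc5 was called in no comparison, and Txndc11 was called in both comparisons with model livers. The 9 genes with the first element had a median log2 fold change of -1.18 in BBBPH against model and 1.16 in model against control livers. The 25 tested genes with a promoter and no such match had medians of -0.20 and 0.39. Of the 25, 11 were lower and 1 higher in BBBPH than in model livers, and 14 were higher in model than in control livers. Of all 7760 tested genes with a promoter, 943 were lower and 1105 higher in BBBPH than in model livers. Of the same 7760 genes, 2326 were higher in model than in control livers. A match describes the letters of the reference, not a bound site, and its absence from this window says nothing of the factors.

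All 9 genes of the BiP system were higher in model than in control livers, where 29.9% of all tested genes were. Of the 9, 8 were lower in BBBPH than in model livers, where 12.2% of all tested genes were. Hspa5 encodes BiP, the main Hsp70 of the ER, and lies on GRCm38 chromosome 2, 34771970 to 34777547. It had 165, 165, 235, 174 and 136 FPKM in BBBPH livers, 992, 883, 618, 714 and 1004 FPKM in model livers, and 250, 231, 335, 324 and 270 FPKM in control livers. Every model value exceeded all values of both other groups, and 4 of 5 BBBPH values were below all control values. The log2 fold change of Hspa5 was -2.26 ± 0.16 (SE) in BBBPH against model (limma adjusted p = 1.41e-06), -0.69 ± 0.16 in BBBPH against control (adjusted p = 0.00627) and 1.56 ± 0.16 in model against control livers (adjusted p = 8.72e-06).

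Manf, which encodes a small cofactor of BiP that is also secreted (chromosome 9, 106838312 to 106891979), followed the same order. Its values were 53.1, 68.8, 85.8, 69.7 and 53.6 FPKM in BBBPH livers, 341, 340, 244, 309 and 408 FPKM in model livers, and 101, 85.6, 130, 125 and 92.6 FPKM in control livers. Only the highest BBBPH value, in 3_1, reached the lowest control value. Its log2 fold change was -2.30 ± 0.16 (SE) in BBBPH against model (limma adjusted p = 1.41e-06), -0.68 ± 0.16 in BBBPH against control (adjusted p = 0.00623) and 1.61 ± 0.16 in model against control livers (adjusted p = 6.53e-06).

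Hsp90b1, the Hsp90 of the ER (GRP94; chromosome 10, 86690209 to 86705509), had 203, 225, 302, 245 and 232 FPKM in BBBPH livers, 571, 554, 455, 488 and 664 FPKM in model livers, and 233, 216, 286, 251 and 229 FPKM in control livers. Here BBBPH and control values overlapped fully, and the means were 241 ± 37.0 and 243 ± 27.2 FPKM. The log2 fold change of Hsp90b1 was -1.18 ± 0.12 (SE) in BBBPH against model (limma adjusted p = 9.97e-06) and 1.16 ± 0.12 in model against control livers (adjusted p = 8.12e-06), while BBBPH against control was not called (-0.02 ± 0.12, adjusted p = 0.926).

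Among the other genes of this system, Sdf2l1, a partner of the co-chaperone Dnajb11, had the largest log2 fold change against model livers, -2.40 in BBBPH, and 2.25 in model against control livers. Its means were 15.1 ± 8.99 FPKM in BBBPH, 76.5 ± 16.0 FPKM in model and 15.6 ± 5.02 FPKM in control livers. Hyou1, the exchange factor that reloads BiP with ATP, averaged 23.6 ± 7.57, 84.0 ± 15.2 and 28.3 ± 5.92 FPKM in BBBPH, model and control livers, and Dnajb11 22.2 ± 5.43, 47.9 ± 6.71 and 22.6 ± 3.23 FPKM. Neither was called between BBBPH and control livers. Dnajb9, a J-protein that recruits BiP to IRE1, was called lower in BBBPH than in control livers, at 37.4 ± 6.90 against 69.5 ± 15.1 FPKM (log2 fold change -0.86), with 115 ± 17.0 FPKM in model livers. Dnajc3 had smaller changes, with log2 fold changes of -0.42 in BBBPH against model and 0.53 in model against control livers. Dnajc10, a J-protein with reductase activity, stood apart from the rest of the system. It averaged 7.78 ± 0.846 FPKM in BBBPH and 7.46 ± 0.864 FPKM in model livers, against 5.27 ± 0.406 FPKM in control livers, and was called higher than control in both diet groups (log2 fold changes 0.48 and 0.43).

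**Figure D3:**
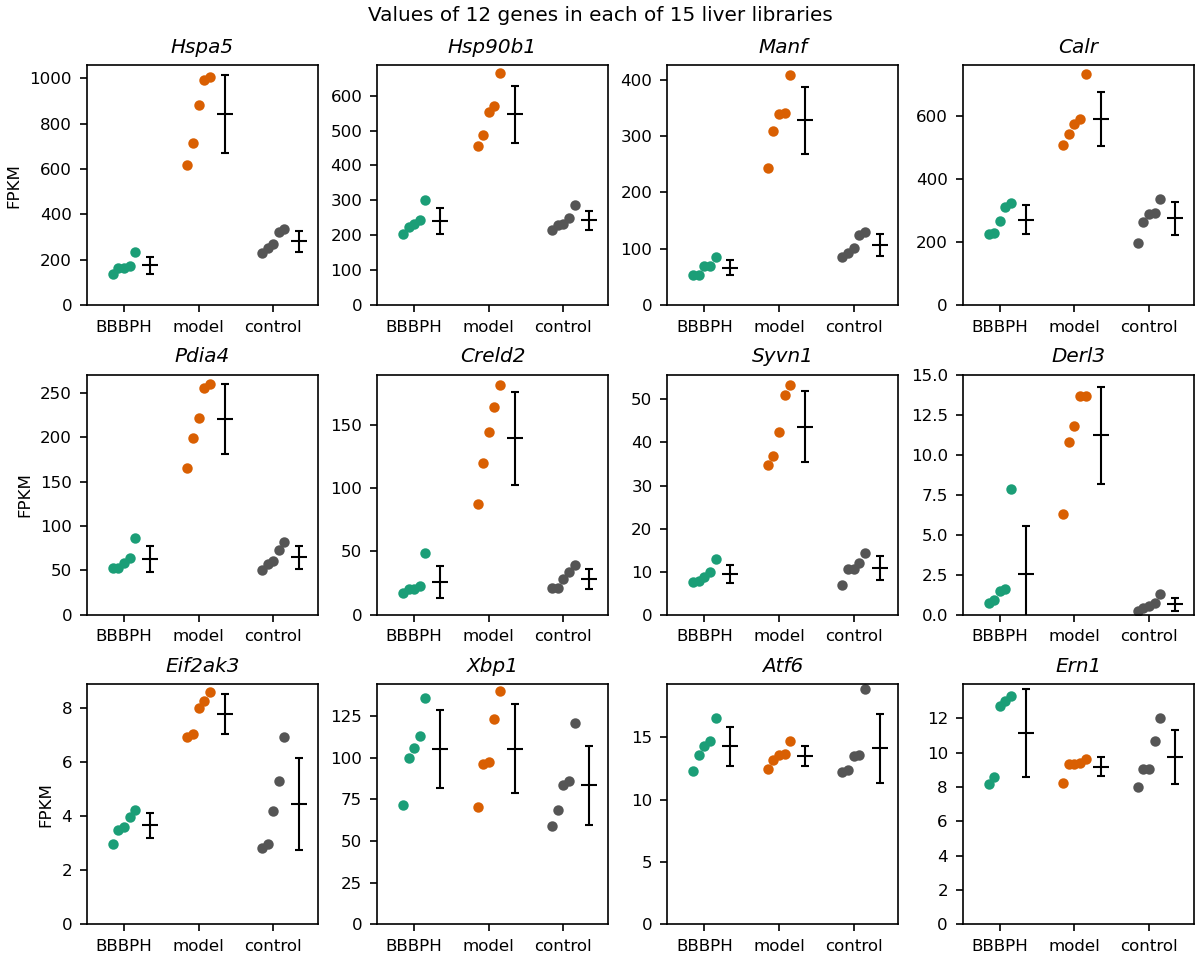
FPKM of 12 genes in each library (points) of BBBPH, model and control livers, with the mean and SD of 5 libraries beside them; each panel starts at 0. From Hspa5 to Syvn1 every model library lies above all others, Derl3 has 1 high BBBPH library at 7.88 FPKM, and Xbp1, Atf6 and Ern1 overlap in all groups.

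Among the lectin chaperones, calreticulin and calnexin were higher in model than in control and lower in BBBPH than in model livers, and Uggt1 was not called in either. Calr, the soluble one (chromosome 8, 84841850 to 84846934), had 228, 268, 325, 311 and 226 FPKM in BBBPH livers, 543, 735, 510, 574 and 591 FPKM in model livers, and 292, 196, 336, 290 and 264 FPKM in control livers. No BBBPH or control value came near the lowest model value. Its log2 fold change was -1.12 ± 0.15 (SE) in BBBPH against model (limma adjusted p = 7.3e-05) and 1.11 ± 0.15 in model against control livers (adjusted p = 5.54e-05).

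Canx, its membrane-bound relative (chromosome 11, 50293961 to 50325673), had 72.7, 82.7, 89.5, 84.0 and 67.8 FPKM in BBBPH livers, 96.0, 103, 97.7, 103 and 112 FPKM in model livers, and 76.1, 66.7, 88.8, 82.5 and 88.6 FPKM in control livers. The model values were again the highest, by a narrow margin. The log2 fold change of Canx was -0.37 ± 0.09 (SE) in BBBPH against model (limma adjusted p = 0.00789) and 0.35 ± 0.09 in model against control livers (adjusted p = 0.00784). Against control livers the call for Canx in model livers ended under median-ratio scaling (0.19, adjusted p = 0.114) and quantile scaling (0.22, adjusted p = 0.111). With the replicate number as a block, it ended too (adjusted p = 0.0876), as did the Canx call in BBBPH against model livers (0.0571). Uggt1, which marks unfolded chains for another round with these lectins (chromosome 1, 36140027 to 36244720), had 9.07, 10.0, 11.1, 9.56 and 6.42 FPKM in BBBPH livers, 8.62, 13.2, 9.33, 10.4 and 10.2 FPKM in model livers, and 9.66, 5.97, 9.58, 9.40 and 11.3 FPKM in control livers, with all groups overlapping (limma adjusted p between 0.397 and 0.959 in the 3 comparisons).

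The disulfide isomerases split into 6 genes that were called in both comparisons with model livers and 3 that were called in neither. The 6 were higher in model than in control livers, where 29.9% of all tested genes were. They were lower in BBBPH than in model livers, where 12.2% of all tested genes were. Pdia4 (ERp72; chromosome 6, 47796141 to 47813430) had 52.4, 57.9, 86.9, 63.8 and 52.6 FPKM in BBBPH livers, 256, 222, 166, 199 and 260 FPKM in model livers, and 60.5, 50.6, 82.5, 73.2 and 57.2 FPKM in control livers. No value outside the model group came near its lowest value. Its log2 fold change was -1.80 ± 0.16 (SE) in BBBPH against model (limma adjusted p = 4.76e-06) and 1.75 ± 0.16 in model against control livers (adjusted p = 3.99e-06), and -0.05 ± 0.16 in BBBPH against control livers (adjusted p = 0.837).

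Creld2, a calcium-binding protein of the ER with isomerase activity (chromosome 15, 88819646 to 88826683), had 20.1, 20.2, 48.5, 22.6 and 17.3 FPKM in BBBPH livers, 181, 144, 87.3, 120 and 164 FPKM in model livers, and 20.9, 20.8, 33.3, 39.1 and 28.1 FPKM in control livers. The BBBPH library 3_1 exceeded all control libraries, while the other 4 lay within or below the control range, and none reached the model range. Its log2 fold change was -2.45 ± 0.26 (SE) in BBBPH against model (limma adjusted p = 1.77e-05), the largest fall among the 39 genes, and 2.25 ± 0.26 in model against control livers (adjusted p = 2.24e-05).

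Pdia3 (ERp57; chromosome 2, 121413775 to 121438687), which works on chains held by calnexin and calreticulin, had 121, 143, 172, 145 and 123 FPKM in BBBPH livers, 255, 294, 224, 257 and 307 FPKM in model livers, and 136, 114, 172, 158 and 135 FPKM in control livers. The model values lay apart from all others. Its log2 fold change was -0.92 ± 0.12 (SE) in BBBPH against model (limma adjusted p = 9.48e-05) and 0.90 ± 0.12 in model against control livers (adjusted p = 7.5e-05). Pdia6, Txndc11 and Creld1 changed in the same directions, with log2 fold changes of -0.77, -0.71 and -0.79 in BBBPH against model and 0.91, 0.47 and 0.53 in model against control livers. P4hb, the classical protein disulfide isomerase and a subunit of collagen prolyl hydroxylase, had the highest level of this role in all 3 groups. It averaged 554 ± 54.8 FPKM in BBBPH, 610 ± 111 FPKM in model and 499 ± 52.7 FPKM in control livers. Its lowest model value, 548 FPKM, was just above its highest control value, 547 FPKM, yet P4hb was not called (limma adjusted p = 0.0633 in model against control livers). Nor were Txndc5, at 63.5 ± 6.12, 60.9 ± 3.69 and 63.6 ± 4.5 FPKM in BBBPH, model and control livers, and Erp44, which retrieves clients from the Golgi, at 16.8 ± 1.11, 15.9 ± 1.12 and 17.1 ± 1.65 FPKM.

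The prolyl isomerases did not share the pattern. Ppib (cyclophilin B; chromosome 9, 66060222 to 66066623) had 198, 263, 209, 249 and 198 FPKM in BBBPH livers, 187, 299, 194, 196 and 201 FPKM in model livers, and 192, 179, 219, 200 and 179 FPKM in control livers, with all groups overlapping and no call. Fkbp11 (chromosome 15, 98724366 to 98728198) had 5.83, 8.14, 7.29, 9.48 and 5.79 FPKM in BBBPH livers, 3.32, 7.25, 3.76, 5.21 and 4.19 FPKM in model livers, and 6.06, 5.16, 8.38, 7.10 and 4.30 FPKM in control livers. It was the only one of the 39 genes called higher in BBBPH than in model livers, where its values overlap (log2 fold change 0.55 ± 0.18 SE, limma adjusted p = 0.0374). That call ended without the filter on low values (adjusted p = 0.0717) and without any of 6 libraries: BBBPH 2_2 (adjusted p = 0.0805), 3_1 (0.065) or 3_2 (0.0961), or model 1_1 (0.0974), 2_1 (0.084) or 3_4 (0.0725).

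Of 11 ERAD genes, 7 were higher in model than in control livers, where 29.9% of all tested genes were. Lower in BBBPH than in model livers were 5 of the 11, where 12.2% of all tested genes were. Syvn1 (chromosome 19, 6046576 to 6053712) encodes HRD1, the ubiquitin ligase in the ER membrane. It had 9.90, 7.61, 12.9, 8.76 and 7.84 FPKM in BBBPH livers, 53.4, 36.9, 34.7, 42.4 and 51.1 FPKM in model livers, and 10.6, 6.78, 12.1, 10.7 and 14.3 FPKM in control livers. BBBPH and control values overlapped, and every model value was above 30 FPKM. The log2 fold change of Syvn1 was -2.11 ± 0.18 (SE) in BBBPH against model (limma adjusted p = 2.93e-06) and 1.92 ± 0.18 in model against control livers (adjusted p = 3.76e-06).

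Sel1l, the adaptor that stabilises HRD1 (chromosome 12, 91806043 to 91849157), had 21.5, 23.2, 25.4, 22.8 and 20.8 FPKM in BBBPH livers, 50.3, 50.1, 41.8, 48.5 and 54.4 FPKM in model livers, and 25.0, 20.6, 26.5, 25.9 and 26.7 FPKM in control livers. Its values were tight within each group, and the model values stood apart. It had the smallest adjusted p of the 39 in model against control livers (log2 fold change 0.95 ± 0.08 SE, limma adjusted p = 3.08e-06), and a log2 fold change of -1.07 ± 0.08 in BBBPH against model livers (adjusted p = 2.18e-06).

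The derlins, which help to move chains out of the ER, did not change alike. Derl3 (chromosome 10, 75893413 to 75895941) had 0.914, 1.59, 7.88, 1.51 and 0.732 FPKM in BBBPH livers, 10.8, 13.7, 6.29, 11.8 and 13.7 FPKM in model livers, and 0.412, 0.527, 1.32, 0.762 and 0.252 FPKM in control livers. The values rest on 39 to 387 fragments a library in BBBPH, 311 to 681 in model and 12 to 64 in control livers. BBBPH 3_1 lay within the model range and the other 4 BBBPH libraries far below it. The log2 fold change of Derl3 was the largest of the 39 in model against control livers, 2.88 ± 0.35 (SE, limma adjusted p = 3.4e-05). In BBBPH against model livers it was -2.06 ± 0.35 (adjusted p = 0.000635), and -2.47 (adjusted p = 8.99e-06) without BBBPH 3_1. In BBBPH against control livers Derl3 was not called (0.82, adjusted p = 0.0917), with 0.41 (adjusted p = 0.167) without BBBPH 3_1, and was called with a pseudocount of 0.1 (1.41, adjusted p = 0.046).

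Derl1 averaged 37.6 ± 3.89 FPKM in BBBPH and 37.8 ± 1.91 FPKM in model livers, against 31.4 ± 2.34 FPKM in control livers, and was called higher in both than in control livers (log2 fold changes 0.25 and 0.26). Both calls ended under median-ratio scaling (adjusted p = 0.476 and 0.266) and quantile scaling (adjusted p = 0.25 and 0.215), and the one for BBBPH also without control 1_5 (0.0556), without BBBPH 3_2 (0.0623), or without model 1_4, BBBPH 2_2 and control 2_1 together (0.0569). Derl2 lay between 16.3 and 23.9 FPKM in BBBPH, 21.4 and 28.6 FPKM in model, and 16.5 and 20.2 FPKM in control livers. It was called between model and control livers (0.39, adjusted p = 0.00592), and lay just outside the threshold between BBBPH and model livers (-0.27, adjusted p = 0.0523), which it passed under 9 of 30 other settings.

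Herpud1, a membrane protein of the HRD1 complex, was the gene whose BBBPH values lay wholly below the control values, with means of 159 ± 16.8 FPKM in BBBPH, 569 ± 130 FPKM in model and 294 ± 66.6 FPKM in control livers. Its log2 fold changes were -1.81 in BBBPH against model, -0.85 in BBBPH against control and 0.96 in model against control livers. Edem1, a mannosidase that trims chains for disposal, averaged 22.6 ± 0.911, 36.4 ± 2.67 and 26.6 ± 2.21 FPKM in BBBPH, model and control livers, with log2 fold changes of -0.66 in BBBPH against model and 0.44 in model against control livers. Its call as lower in BBBPH than in control livers (-0.22, limma adjusted p = 0.0261) ended without control 1_1 (0.0666), control 2_1 (0.0518), BBBPH 3_1 (0.0508) or BBBPH 3_4 (0.0587), and without model 1_4, BBBPH 2_2 and control 2_1 together (0.0645). Its relatives Edem2 and Edem3 and the lectins Os9 and Erlec1, which hand trimmed chains to HRD1, were not called in any comparison, although Erlec1 was called lower in model than in control livers under median-ratio scaling (-0.24, adjusted p = 0.00236), quantile scaling (-0.26, 0.00141) and voom on recovered fragments (-0.17, 0.0307), and lower in BBBPH than in control livers under both scalings (-0.18, 0.0285, and -0.20, 0.0169). As reported, their log2 fold changes lay between -0.15 and 0.26 in BBBPH against model and between -0.13 and 0.15 in model against control livers.

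**Figure D4:**
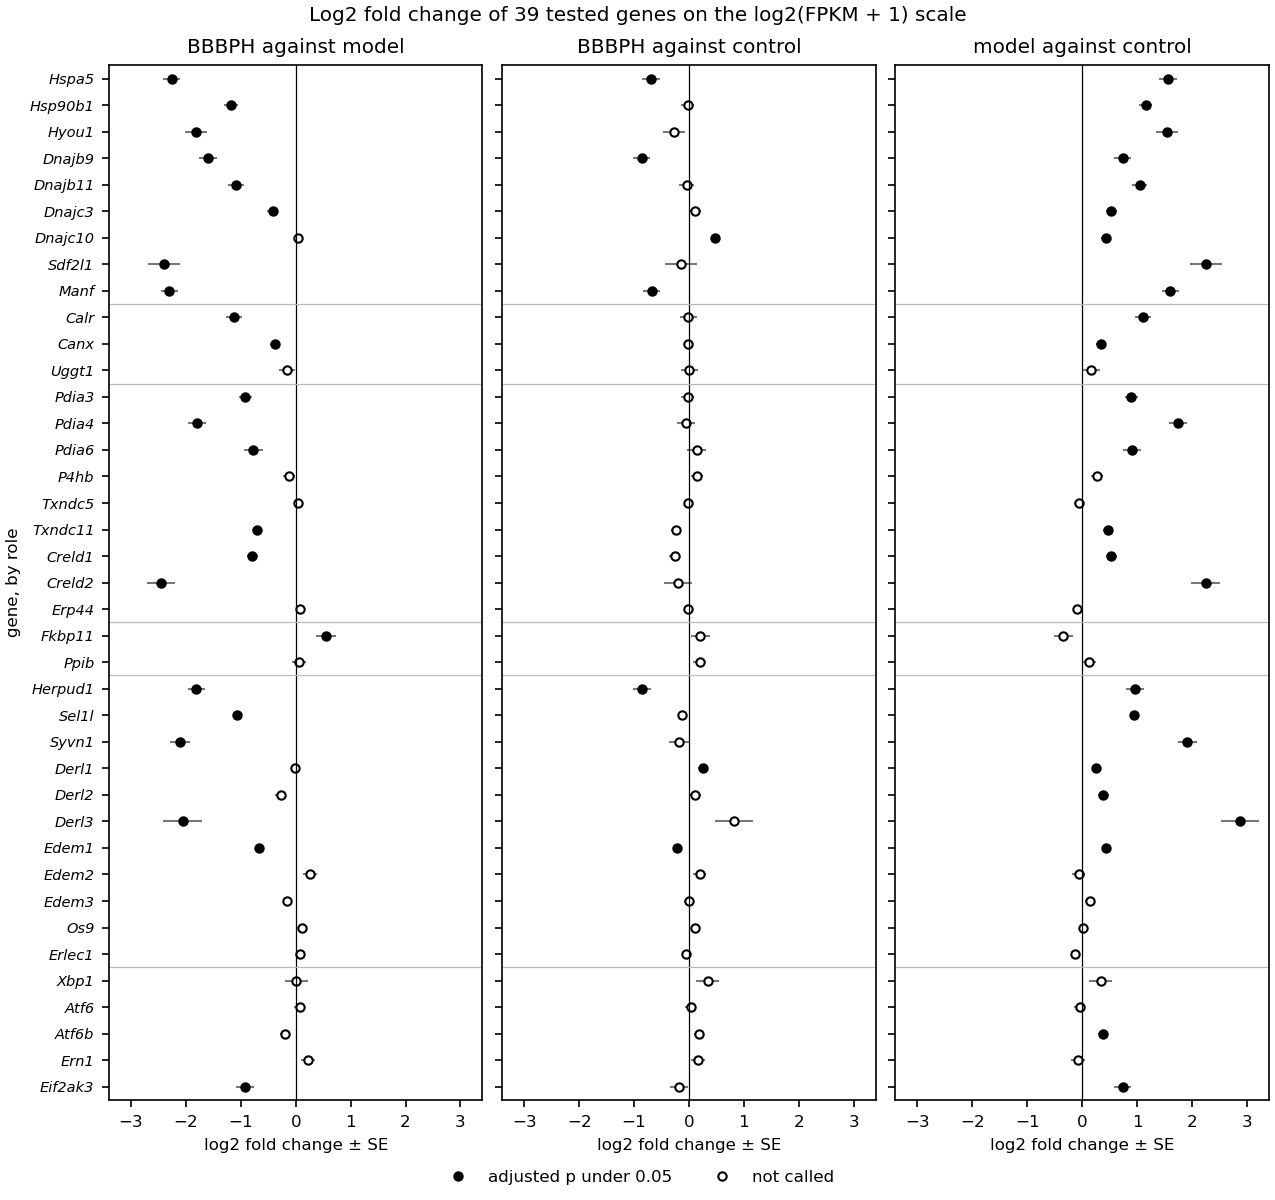
Log2 fold change and SE of 39 genes, by role, in BBBPH against model, BBBPH against control and model against control livers, with filled points for an adjusted p under 0.05. The filled points lie left of 0 in the first panel, except Fkbp11, and right of 0 in the third; in the middle panel 5 lie left (Hspa5, Dnajb9, Manf, Herpud1 and Edem1) and 2 right (Dnajc10 and Derl1).

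Of the 5 sensors and factors, Eif2ak3 and Atf6b were called higher in model than in control livers, 40% where 29.9% of all tested genes were. Eif2ak3 was called lower in BBBPH than in model livers, 20% where 12.2% of all tested genes were. With 5 genes, these shares are not read as a trait of the role. Xbp1, Atf6 and Ern1 were called in no comparison. Xbp1 (chromosome 11, 5520659 to 5525893) had 71.3, 136, 100, 113 and 106 FPKM in BBBPH livers, 70.5, 140, 96.1, 123 and 97.2 FPKM in model livers, and 121, 86.0, 68.4, 58.7 and 83.5 FPKM in control livers. All groups overlapped, and no comparison was called (limma adjusted p between 0.213 and 0.986). FPKM per gene does not separate spliced from unspliced Xbp1 mRNA. Atf6 (chromosome 1, 170704674 to 170867771) had 13.6, 14.3, 16.6, 14.7 and 12.3 FPKM in BBBPH livers, 13.2, 13.7, 13.6, 14.7 and 12.5 FPKM in model livers, and 12.2, 12.4, 13.5, 13.6 and 18.9 FPKM in control livers, again overlapping and not called. Ern1 (chromosome 11, 106394650 to 106487852) had 8.55, 13.0, 13.3, 12.7 and 8.19 FPKM in BBBPH livers, 9.32, 8.2, 9.36, 9.42 and 9.61 FPKM in model livers, and 10.7, 9.05, 9.03, 7.99 and 12.0 FPKM in control livers, and was not called either. In BBBPH livers its values fell apart into 3 near 13 FPKM and 2 near 8 FPKM.

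Eif2ak3, which encodes PERK (chromosome 6, 70844515 to 70905245), was the one sensor gene of the 5 called in both comparisons with model livers. It had 3.61, 3.49, 4.24, 3.96 and 2.99 FPKM in BBBPH livers, 8.60, 8.0, 7.05, 8.28 and 6.95 FPKM in model livers, and 2.84, 2.97, 5.30, 4.20 and 6.95 FPKM in control livers. The highest control value was level with the lowest model value, and no BBBPH value reached the model range. The log2 fold change of Eif2ak3 was -0.92 ± 0.16 (SE) in BBBPH against model (limma adjusted p = 0.000776) and 0.74 ± 0.16 in model against control livers (adjusted p = 0.0024). Both calls ended with the replicate number as a block (adjusted p = 0.0836 and 0.12). Atf6b, a relative of Atf6 (chromosome 17, 34647146 to 34655074), had 5.79, 5.50, 4.99, 5.07 and 5.24 FPKM in BBBPH livers, 6.37, 6.39, 5.87, 5.80 and 6.78 FPKM in model livers, and 4.79, 3.59, 5.73, 4.15 and 4.68 FPKM in control livers. Its model values were above all others, yet only model against control was called (log2 fold change 0.38 ± 0.09 SE, limma adjusted p = 0.00268). That call ended under median-ratio scaling (adjusted p = 0.0552), quantile scaling (0.0519) and with the replicate number as a block (0.102).

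Of the 22 genes called both higher in model than in control and lower in BBBPH than in model livers, 17 were not called between BBBPH and control livers and 5 were lower in BBBPH livers. No call does not show equal levels: Derl3, among the 17, averaged 2.53 ± 3.02 FPKM in BBBPH and 0.654 ± 0.414 FPKM in control livers. The mean in BBBPH livers was below that in control livers for 19 of the 22. For some of these the gap was small, as for Hsp90b1 (241 ± 37.0 against 243 ± 27.2 FPKM). These joint counts were not made over all tested genes, and both comparisons used to choose the 22 share the model libraries. Whether this order of the 3 groups is particular to these genes was not tested. The 4 other genes higher in model livers, Dnajc10, Derl1, Derl2 and Atf6b, were not called between BBBPH and model livers, and 12 of the 39 genes were called in no comparison. The split between higher and lower calls against control livers moved with the scaling. The median log2 fold change of all tested genes, 0.13 in BBBPH against control and 0.12 in model against control livers as deposited, came to -0.01 in both under median-ratio scaling, where 9 of the 39 were lower and 1 higher in BBBPH and 23 higher and 4 lower in model livers. Quantile scaling gave 8 lower and 1 higher in BBBPH and 23 higher and 2 lower in model livers. Over all tested genes, quantile scaling gave 849 lower and 691 higher in BBBPH and 1499 higher and 1742 lower in model livers. Median-ratio scaling gave 944 lower and 667 higher in BBBPH and 1483 higher and 1809 lower in model livers over all tested genes.

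Within groups, single libraries were the highest or the lowest for many of the 39 genes. BBBPH 3_1 was the highest of its group for 23 of the 39 genes and BBBPH 3_4 the lowest for 23. Model 3_4 was the highest for 16 and model 1_4 for 15, and model 2_1 the lowest for 20. Control 2_1 was the highest for 22 and control 1_5 the lowest for 27. These counts were made over the 39 genes only and not over all tested genes, so that they are not read as a trait of these genes. Whether anything else about the libraries moves with the values was not tested.

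Other genes of the same processes were read from 3 lists. Of 28 other ER folding genes tested, 5 were lower and 2 higher in BBBPH than in model livers, and 7 were higher and 3 lower in model than in control livers. Of 28 other ERAD genes, 6 were lower and 2 higher in BBBPH than in model livers, and 11 higher and 2 lower in model than in control livers. Of 21 other regulators of the response, 6 were lower and 2 higher in BBBPH than in model livers, and 10 higher and 1 lower in model than in control livers. These lists had medians of 0.01, -0.11 and 0.00 in BBBPH against model and 0.12, 0.14 and 0.20 in model against control livers, beside medians over all tested genes of 0.02 and 0.12. Called lower in BBBPH than in model livers were 17.9% of the folding genes, 21.4% of the ERAD genes and 28.6% of the regulators, where 12.2% of all tested genes were. Called higher in model than in control livers were 25.0%, 39.3% and 47.6%, where 29.9% of all tested genes were. Whether these shares differ from those of all genes was not tested.

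By adjusted p, Vcp and Ubxn4 led both comparisons with model livers. Vcp, the ATPase that pulls ERAD clients out of the membrane, averaged 76.9 ± 3.90 FPKM in BBBPH, 112 ± 2.48 FPKM in model and 74.5 ± 4.70 FPKM in control livers, with log2 fold changes of -0.54 in BBBPH against model and 0.58 in model against control livers. Ubxn4, which recruits it, averaged 19.3 ± 2.02, 31.3 ± 1.55 and 18.5 ± 1.68 FPKM in BBBPH, model and control livers. Nfya, a subunit of NF-Y, averaged 2.93 ± 0.266 FPKM in BBBPH, 4.46 ± 0.327 FPKM in model and 2.94 ± 0.337 FPKM in control livers, and was called higher in model than in control livers (0.47). Prdx4, a peroxidase of the ER, went the other way, at 32.5 ± 3.04 FPKM in BBBPH, 20.6 ± 2.99 FPKM in model and 28.7 ± 2.51 FPKM in control livers (0.64 in BBBPH against model livers).

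Downstream of PERK, Ddit3 (CHOP) averaged 1.39 ± 0.294 FPKM in BBBPH, 10.5 ± 6.78 FPKM in model and 2.87 ± 0.939 FPKM in control livers, with log2 fold changes of -2.11 in BBBPH against model (limma adjusted p = 4.29e-05) and 1.44 in model against control livers (adjusted p = 0.000557). Every BBBPH value was below every control value, and that comparison was not called (-0.67, adjusted p = 0.0597), although it was under 7 of 29 other settings (adjusted p as low as 0.00496). Trib3, a target of CHOP, averaged 1.58 ± 0.48 FPKM in BBBPH, 3.71 ± 1.24 FPKM in model and 0.687 ± 0.162 FPKM in control livers, and was called higher than control in both diet groups (0.60 and 1.45). The call in BBBPH livers ended under quantile scaling (0.43, adjusted p = 0.0702). Atf4, which is controlled mostly at translation, averaged 69.0 ± 14.3 FPKM in BBBPH, 67.9 ± 10.3 FPKM in model and 58.9 ± 6.64 FPKM in control livers and was not called in any comparison.

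Against control livers, BBBPH livers also had lower Yod1, a deubiquitinase of ERAD (-0.55, limma adjusted p = 0.00168). It averaged 1.33 ± 0.19 FPKM in BBBPH, 1.68 ± 0.206 FPKM in model and 2.43 ± 0.506 FPKM in control livers. Yod1 was called lower in model than in control livers too (-0.35, adjusted p = 0.014), and was not called between BBBPH and model livers (-0.20, adjusted p = 0.153). Creb3 and Creb3l3, membrane-bound transcription factors of the ER, were higher in BBBPH than in control livers (0.34 and 0.27). In model against control livers Creb3 was also called higher (0.25, limma adjusted p = 0.0322), a call that ended under 8 of 30 other settings. Creb3l3 was not called there (0.07, adjusted p = 0.497). The calls of Creb3 and Creb3l3 in BBBPH against control livers both ended under median-ratio scaling (adjusted p = 0.14 and 0.426) and quantile scaling (adjusted p = 0.0642 and 0.118).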

How the data were processed

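Total RNA of 15 livers was extracted with TRIzol and sequenced as libraries of the VAHTS Universal V6 kit, per the labels' protocols. The values used are FPKM as deposited by the authors, 1 column per library, and the series table matched each library's own file (largest difference 0 FPKM). Of tools, the submitters' processing notes list HISAT2, HTSeq, fastp and DESeq2, with no version, and mm10 as the build. The gene annotation and the strand setting are not given in the sources used here.

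Libraries were grouped by their labels, and none was left out. The 9575 genes averaging 1 FPKM or more were tested as log2(FPKM + 1) in R 4.3.3 (limma 3.58.1, statmod 1.5.0), with 3 group means, eBayes with trend=TRUE and 12 residual degrees of freedom. P-values are 2-sided and adjusted within each comparison, and the procedure was tested on simulated data. Depth was read from the FPKM steps: with 1 total per library, values of 15858 genes came within 0.02 of whole fragments, for 100% of gene lengths. Chi-square per gene between libraries of a group was 29.8 to 340, where sampling noise gives 1, and no pair looked like copies. Gene lengths in the FPKM differ from GENCODE M21 exon lengths for some genes (15836 against 3260 bases for Erlec1), which moves levels between genes and, through the pseudocount and the filter, the fold changes of low genes. Positions come from GENCODE M21 and promoters from RefSeq, with Python 3.11.15, numpy 2.4.6, pandas 2.3.3 and matplotlib 3.10.9. Promoters of Hyou1, Manf, Derl1, Erlec1 and Atf6 were not used here, nor were protein sequences.

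The 40 genes, their roles, the other lists and the alternatives were chosen with earlier results of these data known. Every library's value is printed for Hspa5, Xbp1, Atf6, Ern1, Eif2ak3 and, in each role, for the 3 genes with the smallest adjusted p in model against control and the 2 in BBBPH against model. From the other lists the 4 called genes with the smallest adjusted p in each comparison are named, and Atf4 and Ddit3. Alternatives were another pseudocount, filter, scaling or unit (TPM), other limma options, a replicate block, and libraries left out, 30 in all with voom on the recovered fragments, which was chosen after seeing the data.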

Additional observations from a re-analysis of the deposited data

Results flagged for a closer look

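Within groups of 5, a value was set apart when its gap to the nearest other value exceeded 0.71 of the range of its group. Of 147 groups of values checked (49 genes in 3 groups), 17 held such a value. About 1 in 20 would for independent values from a normal distribution. The 147 groups come from the same 15 libraries and are not independent, and whether 17 is more than chance gives was not tested.

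BBBPH 3_1 gave 4 of them. It was the highest for Creld1 (14.0 FPKM, the others at 10.5 to 11.3), Creld2 (48.5 FPKM, the others at 17.3 to 22.6) and Derl3 (7.88 FPKM, the others at 0.732 to 1.59), and the lowest for Txndc11 (6.96 FPKM, the others at 8.78 to 9.48). BBBPH 2_1 was the lowest for Dnajc10 (6.29 FPKM, the others at 8.01 to 8.4).

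Model 1_4 gave 3. It was the highest for P4hb (807 FPKM, the others at 548 to 578) and Ppib (299 FPKM, the others at 187 to 201) and the lowest for Ern1 (8.2 FPKM, the others at 9.32 to 9.61). Among model livers, 1_1 was also the highest for Ddit3 (22.4 FPKM, the others at 5.71 to 9.01), 2_1 for Erlec1 (2.64 FPKM, the others at 2.45 to 2.47), 2_3 for Vcp (116 FPKM, the others at 110 to 112) and 3_4 for Prdx4 (25.9 FPKM, the others at 18.7 to 20.2).

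Control 1_5 gave 3, as the lowest for Derl1 (27.3 FPKM, the others at 31.8 to 33.0), Erp44 (14.2 FPKM, the others at 17.2 to 18.3) and Sel1l (20.6 FPKM, the others at 25.0 to 26.7). Control 3_4 was the highest for Atf6 (18.9 FPKM, the others at 12.2 to 13.6) and control 2_2 for Ddit3 (4.52 FPKM, the others at 2.22 to 2.64).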

How the results depend on the processing

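Across 30 alternatives no log2 fold change that was called as reported changed sign. With libraries left out one at a time, the count of called genes among the 39 was 22 to 24 in BBBPH against model, 6 to 8 in BBBPH against control and 26 to 27 in model against control livers, beside 23, 7 and 26 as reported. The other settings except the block on the full replicate number gave 22 to 24, 5 to 10 and 25 to 27, and voom on recovered fragments 24, 7 and 27. With the replicate number as a block, the counts were 19, 0 and 20. That block ended the calls of Canx, Dnajc3, Eif2ak3 and Fkbp11 in BBBPH against model livers. In model against control livers it ended those of Atf6b, Canx, Derl1, Derl2, Dnajb9 and Eif2ak3. Residuals of 8 pairs with the same number correlated between -0.33 and 0.02, and 0 of 10 libraries correlated best with their own number. The labels do not say what the numbers mean, and 8 pairs are too few to settle whether the libraries are paired. A block on the first digit of the number gave 23, 6 and 26 calls. It ended the calls of Fkbp11 in BBBPH against model (adjusted p = 0.0691) and of Edem1 (0.0889), Derl1 (0.0852), Creb3 (0.0508) and Creb3l3 (0.0835) in BBBPH against control livers, and added Derl2 (0.0281) in BBBPH against model and Creld1 (0.0215) in BBBPH against control livers. Residuals of 23 pairs with the same first digit correlated between -0.33 and 0.44 (median -0.01), against -0.26 to 0.28 (median 0.02) for 52 pairs with other digits. Over all tested genes the block on the full number also cut the calls. They came to 101 higher and 204 lower (BBBPH against model), 135 and 50 (BBBPH against control), and 1032 and 283 (model against control). Only 10 libraries share their number with another, and a library alone in its block adds nothing to the comparisons. The block also takes degrees of freedom from the fit, and what cut the calls was not tested. Median-ratio scaling moved the calls over all tested genes to 667 higher and 944 lower in BBBPH against control livers (2337 and 354 as deposited) and 1483 higher and 1809 lower in model against control livers (2865 and 827 as deposited). Under it, Erlec1, Erp44, Fkbp11 and Txndc5 came out lower in model than in control livers, and the cause was not tested. Depth limits the low genes most: Derl3 rested on as few as 12 fragments in a control library. Fkbp2 fell under the filter on low values, and whether its listed zeros come from the counting was not tested.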

Other observations

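Outside the 40 genes, 28 genes had a match to the ER stress response element in the RefSeq promoters, of which 7 were tested. Of these 7, 2 were lower and 2 higher in BBBPH than in model livers, where 12.2% of all tested genes were lower and 14.2% higher. In model against control livers 3 were higher and 1 lower, where 29.9% of all tested genes were higher and 8.64% lower. The medians of the 7 were -0.28 and 0.29. They were looked at after their values were seen, and are given as values only. Alg12, a mannosyltransferase that builds the sugar precursor of glycoproteins, averaged 1.96 FPKM in BBBPH, 4.23 FPKM in model and 1.95 FPKM in control livers (log2 fold changes -0.82 in BBBPH against model and 0.83 in model against control livers, limma adjusted p = 2.6e-05 and 1.62e-05). Acnat2, an acyltransferase of peroxisomes, averaged 21.4 FPKM in BBBPH, 64.7 FPKM in model and 15.9 FPKM in control livers. Ero1b, which oxidises disulfide isomerases, averaged 11.8, 16.3 and 13.2 FPKM in BBBPH, model and control livers and was not called in any comparison. Acacb, which makes malonyl-CoA, had the opposite order, at 8.0 FPKM in BBBPH, 2.03 FPKM in model and 4.65 FPKM in control livers (1.59 in BBBPH against model and -0.90 in model against control livers).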
